A study of Mus musculus with 12 samples.

Results

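Asb5, Gal, Fam132b, Procr and C7 are 5 genes of very different function that were abundant in adult muscle satellite cells and low in the other cells of the study. They were picked by symbol for that pattern, so 5 of the 23284 gene symbols in the table are described here, each found as 1 row. What remained to be read was how far cells grown from pluripotent stem cells came towards the adult level. The values were FPKM, fragment numbers divided by transcript length and library size, which allow levels to be compared between genes. Because the adult level chose the members, every difference from adult or from embryo cells is given as a description with no test.

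Total RNA had been sequenced from mouse cells sorted by flow cytometry as positive for α7-integrin and VCAM and negative for the endothelial antigen CD31 and the leukocyte antigen CD45, in 4 groups of 3 libraries. The transplant group was sorted from tibialis anterior muscle 1 month after it had received teratoma-derived cells of the same sort gate, and the teratoma group from teratomas that were 3 weeks old. The adult group came from the hindlimbs of male mice 8 weeks of age, and the embryo group from whole E14.5 embryos. All 12 libraries carry the strain 129P2/OlaHsd. The labels name neither the host of the transplants nor a donor mark in the sort, and adult and embryo cells differ in body site as well as in age. Replicates are called biological in the design text, but separate animals are not named, so each p-value reflects only how far these particular samples spread.

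Satellite cells are the resident stem cells of skeletal muscle. They lie between the fibre and its basal lamina, are largely quiescent in the adult, and derive from the fetal progenitors that build the muscle. The 5 genes share no pathway. Asb5 encodes an ankyrin-repeat protein with a SOCS box, the motif that joins a substrate adaptor to a cullin-5 ubiquitin ligase. Gal encodes galanin, a secreted neuropeptide that acts through G protein-coupled receptors. Fam132b, now called Erfe, encodes erythroferrone, a secreted protein of the C1q and TNF-related family that lowers hepcidin when erythroblasts release it. Procr encodes the receptor that presents protein C to thrombin and thrombomodulin for activation, best known on endothelium. C7 encodes a component of the complement membrane attack complex.

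The adult label was checked on markers first. Of 12 satellite cell markers in the table, 2 of which (Itga7 and Vcam1) were used in the sort, the summed level was 598 to 828 FPKM in transplant, 504 to 631 FPKM in teratoma, 1165 to 1306 FPKM in adult and 195 to 255 FPKM in embryo libraries, and no marker was listed at 0 throughout a group. The adult sum was led by Myod1 and by Sdc4, a surface proteoglycan, and without these 2 genes, left out after the values were seen, the other 10 summed to 494 to 703 FPKM in transplant, 397 to 483 FPKM in teratoma, 474 to 527 FPKM in adult and 171 to 230 FPKM in embryo libraries, with transplant and adult overlapping. In 6 of the 12 markers the adult mean was below the transplant mean, Pax7 and the Notch target Heyl (71.2 ± 12.8 FPKM in transplant, 10.3 ± 1.85 FPKM in adult cells; SD, n = 3 each) among them. Myod1, which commits cells to muscle, stood at 41.6 ± 13.3 FPKM in transplant, 50.4 ± 12.6 FPKM in teratoma, 403 ± 52.7 FPKM in adult and 18.2 ± 6.35 FPKM in embryo cells (SD, n = 3 each). Pax7, the transcription factor that defines satellite cells, had its lowest mean in adult cells. It was at 42.3 ± 11.5 FPKM in transplant, 23.1 ± 2.72 FPKM in teratoma, 9.11 ± 0.916 FPKM in adult and 14.0 ± 0.875 FPKM in embryo cells (SD, n = 3 each). Of the 12 markers, 5 had an adult mean below the teratoma mean and 2 an adult mean below the embryo mean. Markers of other cell types were present in every group. The 12 fibroblast markers summed to 6365 to 9482 FPKM in transplant, 3062 to 5003 FPKM in teratoma, 1883 to 2475 FPKM in adult and 2384 to 3477 FPKM in embryo libraries. Embryo replicate 2 listed 74 genes at 0 that were at 5 FPKM or more in both other libraries of its group, against 6 to 27 in the remaining libraries, so a 0 is given only as listed. In bulk samples such as these, fewer cells of a type and less RNA per cell cannot be told apart.

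**Figure D1:**
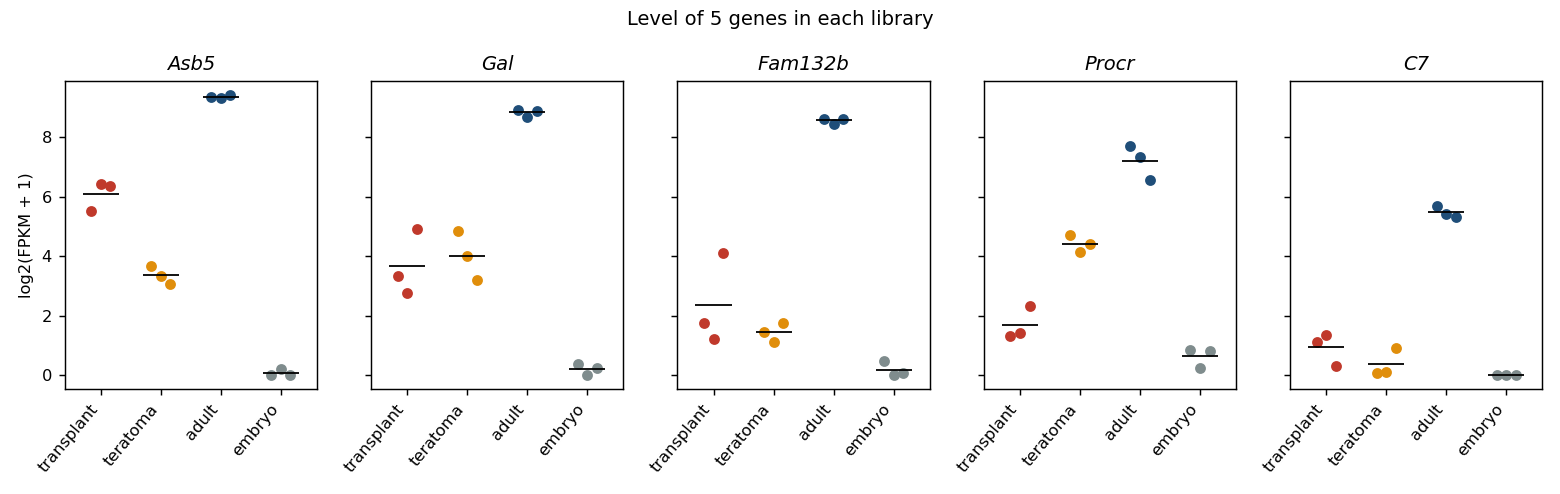
Level of each gene in each library as log2(FPKM + 1), with points for the 3 libraries of a group and a black line for their mean. All 3 adult points lie above all other points in every panel, Asb5 has its transplant points above its teratoma points, and Procr has them below.

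Asb5, the substrate adaptor of the set, was the most abundant of the 5 genes in adult cells. It spans chromosome 8 from 54550331 to 54587842 on the plus strand of mm10 and has 7 exons (GENCODE M21). Asb5 was at 44.6, 84.7 and 80.2 FPKM in the transplant libraries, 11.8, 9.09 and 7.37 FPKM in the teratoma libraries, 644, 633 and 681 FPKM in the adult libraries and 0, 0.142 and 0 FPKM in the embryo libraries. The 4 groups followed each other with no overlap, in the order adult, transplant, teratoma, embryo. Ranked among all symbols, small RNAs included, Asb5 took places 69 to 93 in the adult, 443 to 786 in the transplant and 4262 to 5454 in the teratoma libraries. Transplant cells held 10.7 ± 3.37% of the adult mean and teratoma cells 1.45 ± 0.344% (SD, n = 3 each). Muscle fibres are another place where Asb5 is made. The muscle fibre markers summed to 83.3 to 99.0 FPKM in transplant, 56.9 to 144 FPKM in teratoma, 20.3 to 29.3 FPKM in adult and 3.04 to 6.42 FPKM in embryo libraries. Actn3, the actinin of fast fibres and 1 of the 9 genes summed, averaged 11.4, 4.75, 16.4 and 1.45 FPKM in the same 4 groups. This was the order of Asb5, and no other gene of the list had it. Acta1 averaged 44.4, 40.2, 6.47 and 0.643 FPKM, and Mylpf 14.9, 26.2, 0.298 and 1.23 FPKM. The part of fibre RNA in the Asb5 levels was not tested.

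Gal was the next in adult level and the one in which the stem-cell-derived groups lay closest together. It lies on chromosome 19 from 3409915 to 3414544 on the minus strand and has 6 exons. Gal was at 9.06, 5.78 and 29.1 FPKM in the transplant libraries, 27.9, 14.9 and 8.23 FPKM in the teratoma libraries, 483, 412 and 471 FPKM in the adult libraries and 0.308, 0 and 0.171 FPKM in the embryo libraries. Transplant and teratoma libraries overlapped, each group holding 1 library near 28 FPKM, and neither met the adult or the embryo range. Against the adult mean, transplant cells reached 3.21 ± 2.77% and teratoma cells 3.74 ± 2.2% (SD, n = 3 each). Without transplant replicate 3 the transplant share was 1.63%.

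Fam132b showed the most uneven transplant libraries. The gene runs on chromosome 1 from 91366430 to 91374217 on the plus strand and has 8 exons. Fam132b was at 2.39, 1.34 and 16.1 FPKM in the transplant libraries, 1.76, 1.15 and 2.39 FPKM in the teratoma libraries, 390.1, 349.6 and 391 FPKM in the adult libraries and 0.403, 0 and 0.0618 FPKM in the embryo libraries. Transplant replicate 3 was 12.1 times as high as the lowest transplant library, while the adult libraries spanned 1.12 times. Transplant cells were at 1.76 ± 2.19% of the adult mean and teratoma cells at 0.468 ± 0.164% (SD, n = 3 each). Without transplant replicate 3 the transplant share was 0.495%. Erythroid markers, of the cells in which erythroferrone was described, summed to 0.486 to 0.811 FPKM in transplant, 10.1 to 42.0 FPKM in teratoma, 3.69 to 24.7 FPKM in adult and 293 to 1967 FPKM in embryo libraries. Their part in the Fam132b levels was not tested.

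Procr placed the stem-cell-derived groups in the opposite order to Asb5. It lies on chromosome 2 from 155751117 to 155755471 on the plus strand and has 4 exons. Procr was at 1.48, 1.68 and 3.97 FPKM in the transplant libraries, 25.1, 16.6 and 20.1 FPKM in the teratoma libraries, 205, 162 and 92.4 FPKM in the adult libraries and 0.816, 0.179 and 0.771 FPKM in the embryo libraries. The order was adult, teratoma, transplant, embryo, with no overlap between neighbours, and the adult libraries were the least even of the 5 genes, 2.22 times from lowest to highest. Transplant cells held 1.55 ± 0.903% of the adult mean and teratoma cells 13.5 ± 2.81% (SD, n = 3 each).

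C7 had the lowest adult level of the 5. The gene covers chromosome 15 from 4988762 to 5063740 on the minus strand and has 18 exons. C7 was at 1.19, 1.54 and 0.252 FPKM in the transplant libraries, 0.0594, 0.0669 and 0.875 FPKM in the teratoma libraries and 50.3, 41.6 and 38.8 FPKM in the adult libraries, and it was listed at 0 in all 3 embryo libraries. Transplant and teratoma libraries overlapped at a level near 1 FPKM or below, and both lay under every adult library. The transplant mean was 2.28 ± 1.53% of the adult mean and the teratoma mean 0.766 ± 1.08% (SD, n = 3 each). Teratoma replicate 3 carried most of the teratoma value, which was 0.145% without it.

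**Figure D2:**
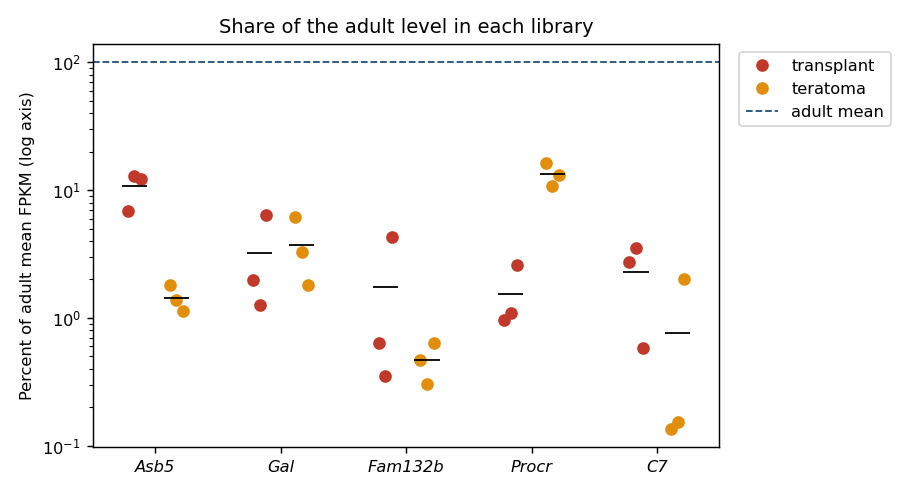
Each transplant and teratoma library as a percentage of the mean of the 3 adult libraries, on a log axis, with a black line for the group mean and a dashed line at the adult mean. The highest transplant point is Asb5 at 13.0% and the highest teratoma point is Procr at 16.4%.

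All transplant and teratoma libraries stayed well below the adult mean in all 5 genes. The highest single values were 13.0% for Asb5 among the transplant libraries, in replicate 2, and 16.4% for Procr among the teratoma libraries, in replicate 1, and both sets of shares rest on the same 3 adult libraries. For all 5 genes the transplant libraries lay below the adult ones with no overlap, as did the teratoma libraries, where 57.6% and 58.4% of all tested genes had such separate groups in either direction. All 5 also had every transplant and every teratoma library above every embryo library, where the shares of genes with separate groups were 50.3% and 37.4%, and every adult library above every embryo library, where it was 58.5%. The choice of genes used these contrasts, so nothing is read from those counts. For Asb5 the adult mean was 9.34 times the transplant mean and 69.2 times the teratoma mean. For Procr it was 64.4 times the transplant mean and 7.42 times the teratoma mean. Fam132b stood farthest from adult in teratoma cells, with an adult mean 214 times the teratoma mean.

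The sequence before the start sites differed among the 3 most abundant members. The 250 bases upstream of the RefSeq start (GRCm38.p6, gene strand, 5′ to 3′) are shown for Asb5, Gal and Fam132b, whose RefSeq and GENCODE starts coincide, because these genes shared the highest adult levels of the 5 and values near 0 in embryo cells. Capitals mark matches to the motifs searched.
Asb5, chr8:54550081-54550330, plus strand: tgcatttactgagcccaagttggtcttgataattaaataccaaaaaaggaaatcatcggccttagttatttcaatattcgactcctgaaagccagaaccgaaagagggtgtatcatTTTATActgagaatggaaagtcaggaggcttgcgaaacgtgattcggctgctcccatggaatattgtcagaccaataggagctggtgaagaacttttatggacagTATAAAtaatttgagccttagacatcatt
Gal, chr19:3414545-3414794, minus strand: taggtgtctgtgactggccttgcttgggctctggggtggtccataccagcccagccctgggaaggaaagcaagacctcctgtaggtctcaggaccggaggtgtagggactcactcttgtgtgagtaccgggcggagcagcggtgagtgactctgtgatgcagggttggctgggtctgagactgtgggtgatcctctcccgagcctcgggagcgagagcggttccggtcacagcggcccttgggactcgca
Fam132b, chr1:91366180-91366429, plus strand: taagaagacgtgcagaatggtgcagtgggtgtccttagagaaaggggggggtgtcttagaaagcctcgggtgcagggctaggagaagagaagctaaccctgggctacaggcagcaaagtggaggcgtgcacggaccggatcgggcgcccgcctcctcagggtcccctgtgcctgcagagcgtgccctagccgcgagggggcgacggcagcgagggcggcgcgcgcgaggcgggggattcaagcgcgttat
The 5 motifs, searched on both strands, were the E-boxes CAGCTG and CACCTG, the AP-1 motif TGANTCA, the MEF2 motif (CTA, any 4 bases, TAG) and the TATA box TATAAA, and no match overlapped another. Asb5 held a TATAAA at position -29, counted from the start site, and a reverse-strand match at position -134, in a window that was 39.2% G and C. The TATA letters occurred in 12.4% of the 32851 RefSeq windows of this length. Gal and Fam132b, at 62.4% and 65.6% G and C, held none of the 5 motifs. Procr held CAGCTG at position -34 and TGACTCA at position -154, and C7 held CAGCTG at positions -129 and -14 and a reverse-strand TATA match at position -6, each counted from its RefSeq start. CAGCTG occurred in 13.0%, CACCTG in 17.2%, TGANTCA in 6.75% and the MEF2 motif in 3.20% of all windows.

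The transplant cells were next set against the teratoma cells, the one comparison that the choice of genes had not used. It sets cells sorted from muscle 1 month after transplantation beside cells sorted from teratomas. A change within the transplanted cells and a different mix of sorted cells cannot be told apart in it. In limma across 12699 genes, 2 of the 5 genes were called, Asb5 as higher and Procr as lower in transplant, where 22.6% of all genes were called, 4.18% as higher and 18.5% as lower. Asb5, Gal, Fam132b and Procr would have passed the expression filter without the adult libraries, each with 6 of the 9 others at 1 FPKM or more, whereas C7, with 2, was tested only because of its adult level. The median log2 difference of all genes tested was -0.28, and the shift between groups depended on scaling: 531 genes were higher and 2343 lower on the deposited values, 938 higher and 1224 lower after median-ratio scaling, which put the median at -0.02, and 1096 higher and 1309 lower after quantile normalization. The 2874 calls in either direction became 1805 without transplant replicate 1 and 1706 without teratoma replicate 1.

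Asb5 averaged 69.8 ± 22.0 FPKM in transplant and 9.43 ± 2.24 FPKM in teratoma cells (SD, n = 3 each), a ratio of 7.41. Its log2 difference was 2.73 ± 0.23 (SE, limma adjusted p = 2.32e-05), or 3.01 above the median of all genes, and all 3 transplant libraries were above all 3 teratoma libraries. Procr averaged 2.38 ± 1.38 FPKM in transplant and 20.6 ± 4.30 FPKM in teratoma cells (SD, n = 3 each). Its log2 difference was -2.73 ± 0.34 (SE, limma adjusted p = 0.000266), or -2.45 relative to the median, with all 3 transplant libraries below all 3 teratoma libraries. Across all genes, 41.6% had groups of libraries that did not overlap.

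The other 3 genes did not pass the test. Gal had a log2 difference of -0.35 with a 95% interval from -1.41 to 0.70 (limma adjusted p = 0.649). Fam132b had 0.92, with an interval from -0.28 to 2.12 (limma adjusted p = 0.257), and C7 had 0.57, with an interval from -0.11 to 1.25 (limma adjusted p = 0.213). The C7 difference was 1.62 with a pseudocount of 0.1 in place of 1, since its values lie near 0. These intervals leave room for a difference of more than 1 on the log2 scale in each gene. The Fam132b difference was 0.05 without transplant replicate 3, and the Gal difference was above 0 without transplant replicate 2 (0.10) or teratoma replicate 1 (0.07).

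**Figure D3:**
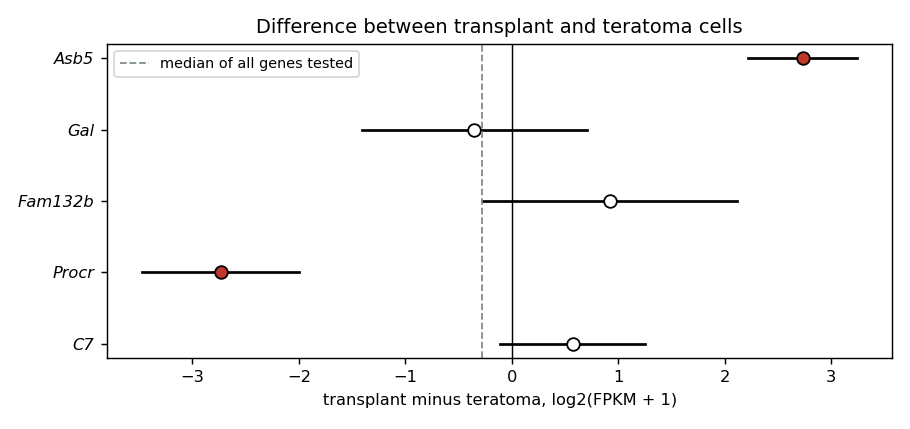
Difference between transplant and teratoma cells on the log2(FPKM + 1) scale for each gene, as limma estimate with 95% confidence interval (n = 3 libraries a group); filled points passed an adjusted p of 0.05. Asb5 lies at 2.73 and Procr at -2.73, the intervals of the other 3 genes include 0, and the dashed line marks the median of all genes at -0.28.

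Transplant replicate 3 stood apart in several of these genes. It was the highest transplant library for Gal, Fam132b and Procr and the lowest for C7. The satellite cell markers summed to 828 FPKM there, against 598 FPKM in each of the other two transplant libraries, while the fibroblast markers (6365 FPKM) and the 7 tendon markers (407 FPKM) were the lowest of the 3. Marker sums thus spanned 1.39 times for satellite cells, 1.49 times for fibroblasts and 1.81 times for tendon in the transplant group, and Fam132b spanned 12.1 times. Hprt, a purine salvage gene that was low in both stem-cell-derived groups, was at 2.02, 0.323 and 0.152 FPKM in the transplant libraries and 44.5 ± 12.3 FPKM in adult cells (SD, n = 3). As shares of the adult mean, Hprt was at 4.54%, 0.725% and 0.342% in transplant replicates 1, 2 and 3. In the same order Fam132b was at 0.635%, 0.35% and 4.28%, and Gal at 1.99%, 1.27% and 6.38%. The Hprt share was thus above both in replicate 1, between them in replicate 2 and below both in replicate 3. The part of these markers in the values of the 5 genes was not tested.

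**Figure D4:**
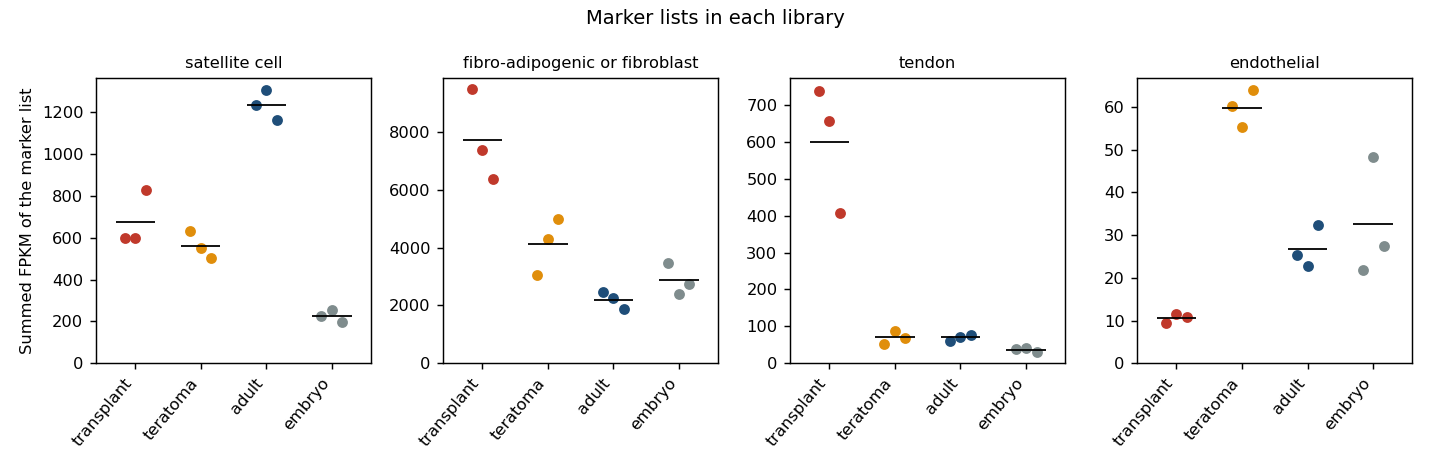
Summed FPKM of the marker lists of satellite cells (12 genes), fibroblasts (12), tendon (7) and endothelium (10) in each library, with a black line for the group mean. The satellite marker sum is highest in adult, led there by Myod1 and Sdc4, fibroblast and tendon markers in transplant, and endothelial markers in teratoma.

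Genes of related function were then read in all 3 comparisons among transplant, teratoma and adult cells. The median log2 difference of all tested genes was 0.23 in transplant against adult and 0.50 in teratoma against adult, and the counts of calls depended on scaling. Transplant against adult gave 3462 higher and 2150 lower genes as deposited, and 2519 and 2721 after quantile normalization. Teratoma against adult gave 4628 higher and 1135 lower genes as deposited, 3340 and 2076 after median-ratio scaling, and 2285 and 2411 after quantile normalization.

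Asb5 belongs to a family of substrate adaptors that share 1 ligase. Of 21 such genes in the table, 11 were tested. In transplant against teratoma limma called 0 of them, beside 22.6% of all genes (4.18% higher and 18.5% lower). The count was also 0 after median-ratio scaling or quantile normalization. At an unadjusted p under 0.05 it was 2, for which the share over all genes was not counted. Against adult, transplant cells had 1 higher and 2 lower, beside 27.3% and 16.9% of all genes (44.2% either way), and teratoma cells 2 higher and 0 lower, beside 36.4% and 8.94% (45.4% either way). After quantile normalization the teratoma count against adult was 0 higher and 1 lower. The list had median log2 differences of -0.07 in transplant against teratoma, 0.26 in transplant against adult and 0.51 in teratoma against adult, beside -0.28, 0.23 and 0.50 for all genes. Cul5, the cullin of the ligase, was lower in transplant (5.14 ± 0.175 FPKM) than in adult cells (10.9 ± 1.71 FPKM; SD, n = 3 each; log2 difference -0.95, limma adjusted p = 0.00751). Asb6 was also lower in transplant, at 4.39 ± 2.53 FPKM against 9.16 ± 2.33 FPKM in adult cells (SD, n = 3 each; log2 difference -0.99, limma adjusted p = 0.0368). Asb4, an embryonic and vascular family member, was at 1.95 ± 1.84 FPKM in transplant, 4.11 ± 1.54 FPKM in teratoma, 0.786 ± 0.603 FPKM in adult and 14.6 ± 3.23 FPKM in embryo cells (SD, n = 3 each). It was higher in teratoma than in adult cells (log2 difference 1.52, limma adjusted p = 0.0121), a call lost under quantile normalization (limma adjusted p = 0.185).

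Galanin needs receptors and the enzymes that process neuropeptides. The table held 15 such genes, of which 5 were tested. In transplant against teratoma 1 was higher and 1 lower, in transplant against adult 3 were higher and 0 lower, and in teratoma against adult 4 were higher and 0 lower, with 1 and 2 higher against adult after quantile normalization. Of all genes, 4.18% were higher and 18.5% lower in the first of these comparisons, 27.3% and 16.9% in the second and 36.4% and 8.94% in the third. Their median log2 differences were 0.02, 1.12 and 1.14 in the same order. Galr1 and the galanin-like peptide gene Galp were listed at 0 in all 12 libraries, and the receptor gene Galr2 reached at most 1.78 FPKM, in transplant replicate 1. Pam, the enzyme that amidates neuropeptides, was at 99.4 ± 18.6 FPKM in transplant, 42.9 ± 4.98 FPKM in teratoma and 24.8 ± 2.13 FPKM in adult cells (SD, n = 3 each). Pam was higher in transplant than in teratoma (log2 difference 1.18, limma adjusted p = 0.000614) and than in adult cells (log2 difference 1.95, limma adjusted p = 7.77e-06). Cpe, the carboxypeptidase that trims propeptides, was lower in transplant (8.83 ± 2.16 FPKM) than in teratoma cells (28.7 ± 12.3 FPKM; SD, n = 3 each; log2 difference -1.53, limma adjusted p = 0.00286). The 9 neural and Schwann markers summed to 3.43 to 10.4 FPKM in transplant, 12.5 to 16.3 FPKM in teratoma, 25.2 to 40.6 FPKM in adult and 21.4 to 38.8 FPKM in embryo libraries, so that adult and embryo ranges overlapped where Gal differed most. Elavl4 was listed at 0 in all transplant and all adult libraries, and Snap25 in all adult ones.

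The C1q and TNF-related genes and the genes of hepcidin control included 22 tested members of 30 in the table. In transplant against teratoma 6 were higher and 4 lower (4.18% and 18.5% of all genes), and in transplant against adult 11 were higher and 4 lower (27.3% and 16.9% of all genes). Teratoma against adult had 7 higher and 0 lower (36.4% and 8.94% of all genes), but 5 higher and 4 lower after median-ratio scaling and 3 higher and 2 lower after quantile normalization. The median log2 differences of the list were 0.07, 1.01 and 0.47 in this order. C1qtnf3, a relative of erythroferrone, was at 86.4 ± 25 FPKM in transplant, 16.8 ± 7.04 FPKM in teratoma and 16.4 ± 7.85 FPKM in adult cells (SD, n = 3 each). It rose in transplant over teratoma cells by 2.34 on the log2 scale (limma adjusted p = 0.000927) and over adult cells by 2.39 (limma adjusted p = 0.000262). Tendon markers summed to 407 to 737 FPKM in transplant, 53.0 to 88.3 FPKM in teratoma, 60.4 to 77.5 FPKM in adult and 29.6 to 41.5 FPKM in embryo libraries, and with the fibroblast sums given above they were highest in transplant, as C1qtnf3 was. The part of these cells in the C1qtnf values was not tested. C1qtnf2 and C1qtnf7 averaged 10.1 and 7.41 FPKM in transplant, 2.99 and 2.07 FPKM in teratoma and 0.595 and 0.265 FPKM in adult cells, an order unlike that of Fam132b. Hamp, the hepcidin gene itself, was too low to be tested, with its highest value, 0.345 FPKM, in teratoma replicate 3.

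In the protein C and thrombin pathway 13 of 23 genes were tested. In transplant against teratoma 3 were higher and 4 lower (4.18% and 18.5% of all genes), in transplant against adult 6 higher and 0 lower (27.3% and 16.9%), and in teratoma against adult 6 higher and 2 lower (36.4% and 8.94%), the last becoming 4 and 1 after quantile normalization. The median log2 differences were -0.10, 0.28 and 0.90. Thbd encodes thrombomodulin, which works with the product of Procr to activate protein C. Thbd was at 32.4, 26.4 and 30.6 FPKM in the transplant libraries, 4.89, 7.38 and 11.4 FPKM in the teratoma libraries, 23.5, 21.5 and 28.4 FPKM in the adult libraries and 2.37, 2.73 and 1.61 FPKM in the embryo libraries. It was higher in transplant than in teratoma (log2 difference 1.85, limma adjusted p = 0.000507), the reverse of Procr, and its transplant libraries overlapped the adult range (log2 difference 0.28, limma adjusted p = 0.406). Tfpi2, a Kunitz-type protease inhibitor, was lower in transplant (3.99 ± 2.43 FPKM) than in teratoma cells (18.2 ± 7.13 FPKM; SD, n = 3 each; log2 difference -1.99, limma adjusted p = 0.0152). Serpine2, the protease nexin that inhibits thrombin, was higher in teratoma (73.9 ± 2.64 FPKM) than in adult cells (17.4 ± 5.30 FPKM; SD, n = 3 each; log2 difference 2.06, limma adjusted p = 0.000126).

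Endothelial cells are a known source of Procr, and their markers were summed as well. All 10 were in the table and none was at 0 throughout a group. They summed to 9.49 to 11.6 FPKM in transplant, 55.2 to 64.0 FPKM in teratoma, 22.7 to 32.3 FPKM in adult and 21.9 to 48.3 FPKM in embryo libraries. Cdh5, the cadherin of endothelial junctions, was at 2.87 ± 0.0240 FPKM in transplant, 18.7 ± 2.00 FPKM in teratoma, 4.80 ± 1.13 FPKM in adult and 7.12 ± 3.01 FPKM in embryo cells (SD, n = 3 each). The adult sums lay below the teratoma sums and overlapped the embryo sums. Tek, alone in the list, had a higher mean in adult than in teratoma cells. It was at 1.68 ± 0.187 FPKM in transplant, 2.54 ± 0.443 FPKM in teratoma, 4.53 ± 0.877 FPKM in adult and 5.83 ± 2.45 FPKM in embryo cells (SD, n = 3 each). The part of endothelial RNA in the Procr levels of the 4 groups was not tested.

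The complement list held 33 genes in the table and 20 tested. In transplant against teratoma 4 were higher and 3 lower (4.18% and 18.5% of all genes), in transplant against adult 8 higher and 4 lower (27.3% and 16.9%), and in teratoma against adult 7 higher and 5 lower (36.4% and 8.94%), with median log2 differences of -0.39, 0.47 and 0.42. The last counts became 5 higher and 5 lower after median-ratio scaling (3340 and 2076 over all genes). After quantile normalization they were 5 higher and 6 lower (2285 and 2411 over all genes). C1qa, a chain of the starter C1q that macrophages make, was at 5.49, 4.72 and 1.51 FPKM in the transplant libraries, 10.4, 5.11 and 10.4 FPKM in the teratoma libraries and 0, 0 and 0.290 FPKM in the adult libraries. It was higher than in adult in both, by 2.06 in transplant and 3.09 in teratoma on the log2 scale (limma adjusted p = 0.000823 and 5.54e-05). The 9 macrophage and leukocyte markers in the table, C1qa, C1qb and C1qc among them, summed to 21.3 to 48.2 FPKM in transplant, 59.9 to 139.9 FPKM in teratoma, 7.62 to 16.6 FPKM in adult and 3.41 to 13.5 FPKM in embryo libraries, with Ptprc and C1qc listed at 0 in all adult libraries and C1qa in all embryo libraries. Their part in the complement calls was not tested. Of the partners of C7 in the membrane attack complex, C8a, C8b and C9 were listed at 0 in all 12 libraries, and C6 reached at most 0.191 FPKM, in adult replicate 2. C8g was at 1.99 FPKM in transplant replicate 3, 1.8 FPKM in teratoma replicate 2 and 1.13 FPKM in embryo replicate 1, and was listed at 0 in the other libraries. C3, the central component, was at 4.76 ± 1.14 FPKM in transplant, 14.0 ± 5.77 FPKM in teratoma and 29.6 ± 3.15 FPKM in adult cells (SD, n = 3 each), and it was lower than in adult in both (log2 differences -2.43 and -1.09, limma adjusted p = 3.7e-05 and 0.00653). C7, highest in adult cells, is also made by fibroblasts. Their marker sums, given above, were lower in adult than in transplant and teratoma cells, but not every marker followed the sum. Adult means were above teratoma means for Gsn (675 and 93.5 FPKM), Dcn (256 and 182 FPKM), Dpt (64.7 and 41.3 FPKM) and Ly6a (19.0 and 17.3 FPKM). They were below them for Pdgfra, Lum, Cd34, Pi16, Clec3b, Col1a1, Col1a2 and Col3a1. Every marker of the list had a lower mean in adult than in transplant cells. The part of fibroblast RNA in the C7 levels was not tested.

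The share of the adult level was also read in a wider set placed like the 5 genes between adult and embryo. Genes were taken with an adult mean of at least 10 FPKM and every embryo library under 5% of it, which gave 108 symbols, all 5 genes among them. After removal of small RNA and predicted genes and of mitochondrial, histone and ribosomal protein genes, an exclusion chosen after the values were seen, 55 remained. In these 55 the median share of the adult mean was 29.8% in transplant (quartiles 11.7% and 74.0%) and 24.4% in teratoma cells (quartiles 15.1% and 46.4%). Over all 108 the medians were 16.8% and 14.9%. In transplant 20 of the 55 genes were at 50% or more of the adult mean, and in teratoma 11.

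The 5 genes had been picked for low values outside adult cells, so a low place in this set was fixed by the choice and is given only as a description. Among the 55, Fam132b had 3 genes below it by transplant share and 1 by teratoma share, and Asb5 had 12 and 3. Procr had 2 below it by transplant share but 12 by teratoma share. Gal had 6 and 5, and C7 had 4 and 2. Among all 108 symbols, 46 stood at or below Asb5 by transplant share and 41 by teratoma share, and for Procr these were 34 and 52. Both shares were under 10% for 35 of the 108 symbols (32.4%) and for 6 of the 55 genes, and 3 of these were Gal, Fam132b and C7. The others were Arl4d, a small GTPase gene, at 7.19% in transplant and 8.05% in teratoma cells, the adaptor gene Blnk at 3.14% and 7.75%, and the sialidase gene Neu2, listed at 0 in every transplant and teratoma library.

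**Figure D5:**
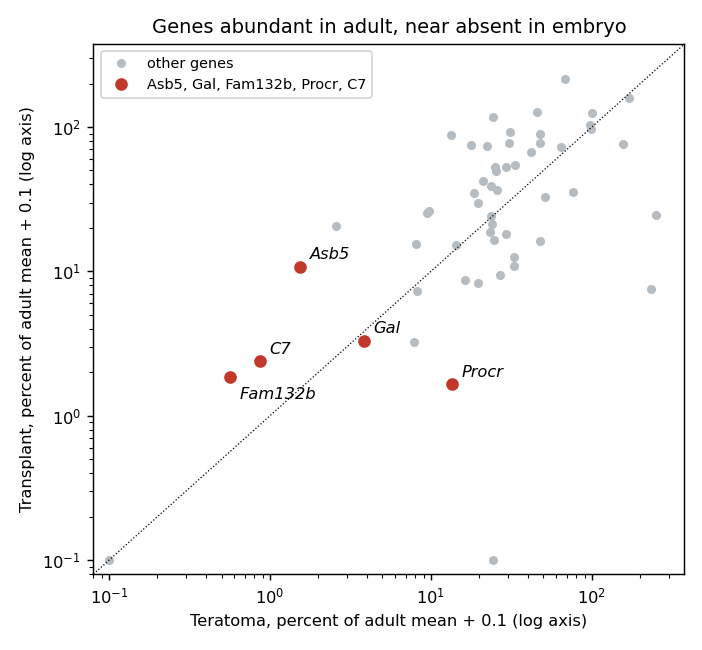
Transplant against teratoma share of the adult mean for the 55 named genes with at least 10 FPKM in adult and every embryo library under 5% of that mean, in percent plus 0.1 on log axes, with the line of equal shares dotted. Asb5, C7 and Fam132b lie above the line, Procr well below it and Gal close to it.

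Genes with the most similar pattern over the 12 libraries were found by Pearson's r of log2(FPKM + 1) among 8140 named genes. These correlations are descriptions: libraries of a group share their source, and the adult libraries dominate each of them. For Asb5 the closest were the zinc transporter gene Slc39a14 (r = 0.985), the interleukin receptor gene Il17ra (r = 0.983) and the dystrophin gene Dmd (r = 0.983), at 27.6%, 45.4% and 34.0% of adult in transplant and 11.2%, 17.3% and 15.2% in teratoma cells. For Gal they were the FGF receptor gene Fgfr1 (r = 0.988), Akap2 (r = 0.987) and the filamin gene Flnc (r = 0.987). They were at 28.1%, 18.6% and 23.7% of adult in transplant and 27.9%, 19.0% and 24.7% in teratoma cells.

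For Fam132b the closest were Sowahc (r = 0.980), the carbohydrate response factor gene Mlxipl (r = 0.977) and the heparan sulfotransferase gene Hs6st3 (r = 0.974). They were at 40.8%, 4.20% and 9.21% of adult in transplant and 39.1%, 3.58% and 3.09% in teratoma cells. For Procr they were the protease gene Adamts1 (r = 0.983), the muscle transcription factor gene Mef2d (r = 0.979) and Eaf1 (r = 0.976), at 36.2%, 40.6% and 18.8% of adult in transplant and 58.9%, 67.4% and 49.1% in teratoma cells. For C7 they were Neu2 (r = 0.975), Plekhm2 (r = 0.974) and the RNA-editing deaminase gene Adarb1 (r = 0.963). Neu2 was listed at 0 outside adult cells, and Plekhm2 was at 36.4% of adult in transplant and 33.6% in teratoma cells. Adarb1, with 59.8 ± 3.75 FPKM in adult cells (SD, n = 3), was at 5.86% of adult in transplant and 5.35% in teratoma cells. Between the 5 genes themselves r ran from 0.757 for Asb5 and Procr to 0.951 for Fam132b and C7.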

How the data were processed

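The authors deposited FPKM values of 12 libraries in a single table with 1 line per gene symbol, per the file headers. CASAVA 1.8.2, TopHat 0.7, Cufflinks 2.2.1.0 and Partek are listed in the submitters' processing notes with build mm10 and no roles. Per the labels' protocols, libraries were made with a stranded total RNA kit for low input. Of 23746 entries, 462 repeated one of 240 symbols and were summed. Low values showed no steps of whole reads, so depth is unknown, and a listed 0 may stand for an estimate that failed.

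Tests used limma 3.58.1 in R 4.3.3 on log2(FPKM + 1), computed from the deposited values; this scale understates changes of low genes. A gene was tested if 3 or more libraries held 1 FPKM or more (12699 genes). A single fit over the 4 groups with an intensity trend gave two-sided p-values, Benjamini-Hochberg adjusted over all of these genes at 0.05, and was tested on simulated data. The members and lists were chosen with earlier results of these data known. The text names the 5 members, the 3 genes most like each by Pearson's r with a highest group mean of 5 FPKM or more, up to 4 called genes of each pathway list, and leading markers. Hprt, Galr1, Galr2, Galp, Hamp, C6, C8a, C8b, C8g, C9, Actn3, Heyl, Ptprc, C1qc, Arl4d, Blnk, Elavl4, Snap25, Tek, Gsn, Dcn, Dpt, Ly6a, Pdgfra, Lum, Cd34, Pi16 and Clec3b were named after their values were seen. Other settings tried were pseudocount 0.1, testing without a filter or from a mean of 5 FPKM, quantile normalization, median-ratio scaling, a fit of only 2 groups, the replicate block and leaving out each library. Coordinates came from GENCODE M21 and promoters from RefSeq GRCm38.p6, both of the same build as mm10. All 5 members matched, Fam132b as Erfe.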

Additional observations from a re-analysis of the deposited data

How the results depend on the processing

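In transplant against teratoma, Asb5 and Procr kept their direction and their call under all 19 alternatives each, with log2 differences from 2.57 to 3.05 (adjusted p at most 0.00168) for Asb5 and from -3.18 to -2.46 (adjusted p at most 0.00251) for Procr. Gal, Fam132b and C7 passed the test under none of them. The log2 difference of Gal ran from -0.97 to 0.10 when single libraries were left out and turned positive without transplant replicate 2 (0.10) and without teratoma replicate 1 (0.07). That of Fam132b ran from 0.05 to 1.49 and that of C7 from 0.37 to 0.88, with 1.62 at a pseudocount of 0.1. The number of genes called, 2874, ran from 1706 (without teratoma replicate 1) to 3300, with 1805 without transplant replicate 1. The cause was not tested. The teratoma share of the adult level of Procr was 10.4% after median-ratio scaling, against 13.5%, and the cause was not tested. Leaving out 1 library moved the transplant share of Asb5 between 9.56% and 12.6%, of Gal between 1.63% and 4.19%, of Fam132b between 0.495% and 2.46%, of Procr between 1.03% and 1.87% and of C7 between 1.66% and 3.13%. The teratoma shares moved between 1.26% and 1.60%, 2.54% and 4.71%, 0.385% and 0.550%, 11.2% and 16.2%, and 0.145% and 1.08% in the same order of genes. Deviations of same-numbered transplant and teratoma libraries correlated at -0.09, 0.10 and -0.07. They were taken from group means of 3 libraries, so these values cannot show whether same-numbered samples were paired. With the replicate block 2466 genes were called, Asb5 and Procr among them (log2 differences 2.73 and -2.73, adjusted p = 0.000195 and 0.000889). With 3 libraries a group and unknown depth, values near 0 limit what can be said of C7 outside adult cells.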
